A study of Mus musculus with 12 samples.

Results

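Ifitm1, Ifitm2, Ifitm3 and Ifi27 are interferon-induced genes that encode small membrane proteins. Their array signals were followed in mouse embryonic fibroblasts, cultured connective tissue cells of embryonic origin, with and without Rictor and before and after interferon-alpha (IFN-alpha). Every probe annotated with 1 of these 4 symbols was taken, which gave 7 of the 45281 probes on the array and 4 of the 10183 named genes. The genes were chosen by measured values of these same arrays: in an earlier analysis the response of Ifitm3 and Ifi27 to IFN-alpha was larger in cells without Rictor, from a lower untreated signal. For the 4 genes the response in each line, the difference between the responses and the levels before treatment are therefore given as a description, with no test. The exception is the response averaged over both lines, which in this balanced design is orthogonal to the difference of responses and to the untreated difference, and which was tested. It is not independent of the response in a single line, which makes up part of it. The Rictor-/- response was part of what chose Ifitm3 and Ifi27. For these genes the p-value of the average is therefore not free of that choice.

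Type I interferon binds its receptor and, through kinases at the receptor, activates transcription factors that bind the interferon-stimulated response element in the promoters of their target genes. The Ifitm proteins sit in the membranes of the cell surface and of endosomes, where they hinder the fusion of enveloped viruses. Ifitm1 acts mainly at the cell surface, and Ifitm3, which is drawn into endosomes, protects mice from influenza virus. Ifi27 belongs to another family of small hydrophobic proteins, placed in mitochondria or at the nuclear envelope, and was named for its induction by interferon. Rictor is needed for the assembly of mTOR complex 2, which phosphorylates Akt among other kinases.

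The 12 arrays fell into 4 groups of 3: untreated Rictor+/+ cells (arrays 1, 5 and 9), Rictor+/+ cells given IFN-alpha (arrays 2, 6 and 10), untreated Rictor-/- cells (arrays 3, 7 and 11) and Rictor-/- cells given IFN-alpha (arrays 4, 8 and 12). Both lines were immortalized and kept in the same serum-containing medium, and treated cells received mouse IFN-alpha at 2500 U/ml for 24 hours. The labels do not say whether each genotype is 1 line. Each genotype is called a line here, and line and genotype cannot be told apart. The p-values measure only the spread between arrays, because separate cultures are not stated. A protocol field names Rictor siRNAs for all samples, against the knockout genotype given elsewhere; the genotype was followed. The Rictor probe read 118.3 to 359.1, close to the background, and was above it on 2 of 3 untreated arrays of each line, so the deletion could not be checked with it. Of the fibroblast markers, 10 of 10 were above background on all 12 arrays. Few markers of other cells had a named probe: 2 of 7 for macrophages, 1 of 4 for endothelium, 1 of 5 for epithelium and 1 of 6 for germ cells. Lyz2 of macrophages, Epcam of epithelium and Ddx4 of germ cells were above background on no array. Csf1r of macrophages and the endothelial marker were above it on some arrays but not on all. The background level lay at 206.3 to 236.2 on arrays 1 to 6 and at 105 to 124.1 on arrays 7 to 12. These sets each held all 4 groups, with more Rictor+/+ arrays in the first and more Rictor-/- arrays in the second. The total signal was 39160370 to 62338146 on 11 arrays and 21292305 on array 12.

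The promoters of the Ifitm members are shown because they differ in how often they hold the core recognition sequence of the factors that IFN-alpha activates, from 2 times to none. The windows, from 250 bases before to 50 bases after the start of transcription in the RefSeq annotation of build GRCm38.p6, were matched by symbol for 3 of the 4 members and for the neighbouring Ifitm6. Capitals mark the core of the interferon-stimulated response element, searched on both strands as GAAANNGAAA. The Ifitm3 window is chr7:141010695-141010994 on the minus strand, the Ifitm2 window chr7:140955912-140956211 on the minus strand, and the Ifitm1 window chr7:140967826-140968125 on the plus strand.
Ifitm3: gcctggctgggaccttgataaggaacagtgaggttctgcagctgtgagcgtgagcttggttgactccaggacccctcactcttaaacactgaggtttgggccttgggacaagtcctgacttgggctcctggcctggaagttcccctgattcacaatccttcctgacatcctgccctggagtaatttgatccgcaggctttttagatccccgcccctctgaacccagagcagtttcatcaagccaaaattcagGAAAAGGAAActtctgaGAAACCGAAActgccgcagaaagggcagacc
Ifitm2: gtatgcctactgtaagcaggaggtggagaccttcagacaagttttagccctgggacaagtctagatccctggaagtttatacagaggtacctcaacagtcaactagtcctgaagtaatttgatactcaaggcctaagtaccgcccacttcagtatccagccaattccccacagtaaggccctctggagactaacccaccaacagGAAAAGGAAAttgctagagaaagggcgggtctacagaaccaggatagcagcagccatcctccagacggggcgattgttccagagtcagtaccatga
Ifitm1: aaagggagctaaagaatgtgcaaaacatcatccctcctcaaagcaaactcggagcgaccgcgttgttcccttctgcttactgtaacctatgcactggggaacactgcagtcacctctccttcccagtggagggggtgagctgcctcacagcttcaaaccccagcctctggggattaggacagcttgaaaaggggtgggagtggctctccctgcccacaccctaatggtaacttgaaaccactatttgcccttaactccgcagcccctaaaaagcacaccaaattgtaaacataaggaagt
The Ifitm3 window held 2 such cores, GAAAAGGAAA with its first base at +3 and GAAACCGAAA with its first base at +20. The Ifitm2 window held 1, GAAAAGGAAA with its first base at -46, and the Ifitm1 and Ifitm6 windows held none. Of all 32851 windows in the table, 3.44% held this core. The core of the gamma-activated site, TTCNNNGAA, another element of interferon-regulated promoters, was in 8.3% of windows; Ifitm3 had 1 match, TTCTGAGAA at +14, which overlaps its second response element core, and Ifitm6 had 1 at -10. The table gives 1 start for each of these genes, although Ifitm1 has 4 annotated transcripts and Ifitm2 has 2, so the counts hold for the windows shown. A match is only a description of these letters.

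Ifitm3 was the member with the widest range. In untreated Rictor+/+ cells its probe read 16828.0, 22058.5 and 22651.5 on arrays 1, 5 and 9, on the linear scale of the deposited intensities. In untreated Rictor-/- cells it read 2049.1, 741.8 and 666.7 on arrays 3, 7 and 11. All 3 Rictor-/- arrays thus lay far below all 3 Rictor+/+ arrays, and array 3, of the high-background set, stood above the other Rictor-/- arrays. With IFN-alpha the probe read 62560.3, 64780.8 and 33129.0 in Rictor+/+ cells (arrays 2, 6 and 10). In Rictor-/- cells it then read 50797.1, 41377.1 and 8652.3 (arrays 4, 8 and 12). The 8652.3 was on array 12, the array of low total signal, and after normalization between arrays that array read 14.33 on the log2 scale against 15.18 and 15.15.

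On the log2 scale of normalized intensity, the mean level of Ifitm3 was 14.19 ± 0.18 (SD, n = 3) in untreated and 15.65 ± 0.27 in treated Rictor+/+ cells. In Rictor-/- cells it was 9.80 ± 0.87 untreated and 14.89 ± 0.48 with IFN-alpha. The order of the groups, from low to high, was untreated Rictor-/-, untreated Rictor+/+, treated Rictor-/- and treated Rictor+/+, and only the middle pair overlapped. In RNA of whole cultures, fewer expressing cells and less RNA per cell cannot be told apart. The response averaged over both lines was a log2 change of 3.27 ± 0.27 (SE), or 9.65-fold, and passed the test (limma adjusted p = 2.89e-06). Its larger part comes from the Rictor-/- line, whose response was part of what chose Ifitm3. The average therefore does not test a response common to the lines. As a description, the change was 1.46 ± 0.38 in Rictor+/+ and 5.08 ± 0.38, or 33.9-fold, in Rictor-/- cells, which differ by 3.63 ± 0.53 (95% interval 2.48 to 4.77). The untreated difference between the lines was -4.39 ± 0.38, a 21-fold lower signal in Rictor-/- cells. Under IFN-alpha the difference was -0.76 ± 0.38 (95% interval -1.58 to 0.05), although all 3 treated Rictor-/- arrays still lay below all 3 treated Rictor+/+ arrays. The response of the Rictor-/- line and the untreated difference share the same 3 untreated Rictor-/- arrays, so these are not independent values.

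**Figure D1:**
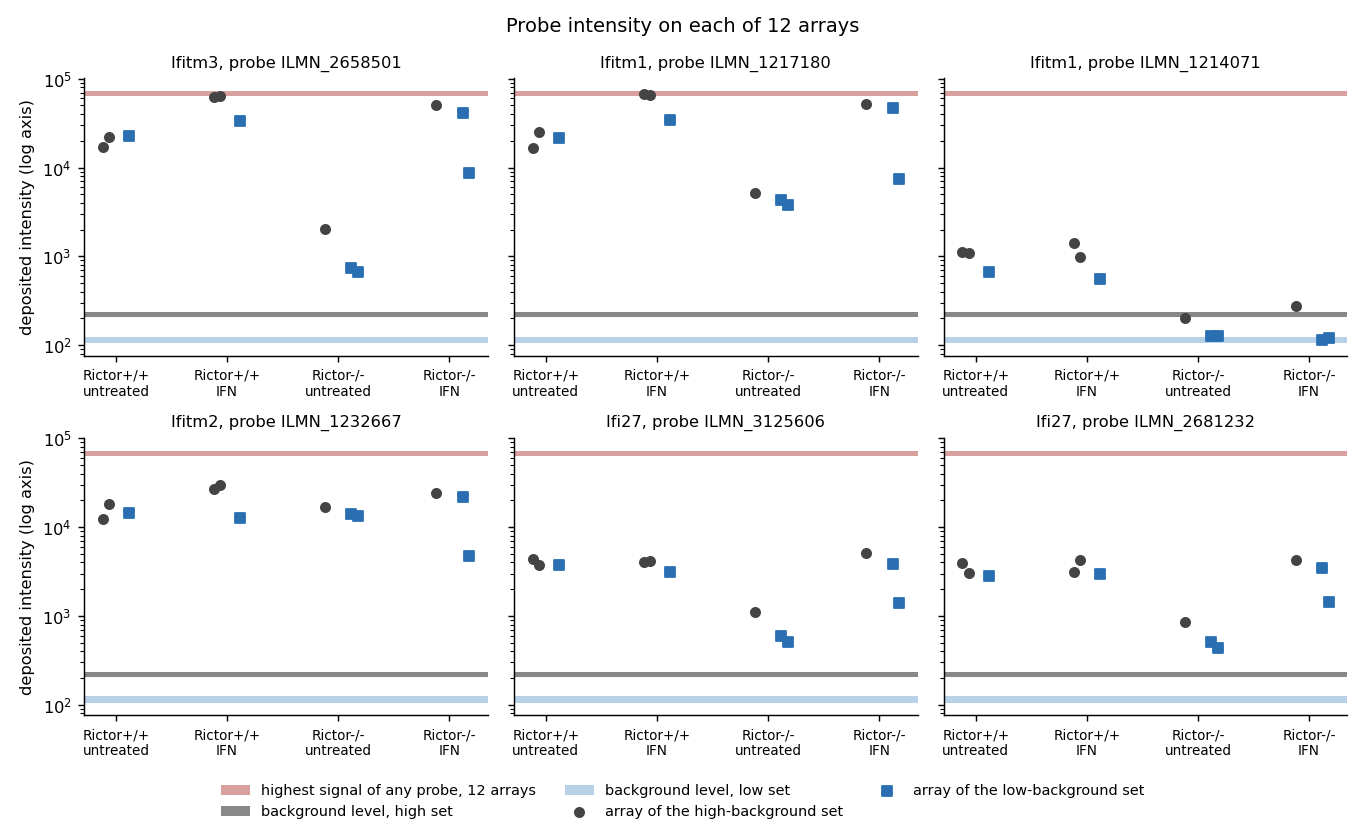
Deposited probe intensity (log axis) of the 6 kept member probes on each of the 12 arrays, by group. Bands mark the background levels of both sets of arrays and the range of the highest signal of any probe. Ifitm3, the bright Ifitm1 probe and both Ifi27 probes were lowest in untreated Rictor-/- cells; array 12 is the lowest treated Rictor-/- point in the panels of Ifitm3, Ifitm2, Ifi27 and the bright Ifitm1 probe.

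The 3 probes of Ifitm1 gave different results. The brightest read 16503.8, 25176.2 and 21691.0 in untreated Rictor+/+ cells and 5126.0, 4351.5 and 3761.0 in untreated Rictor-/- cells, in order of array number. With IFN-alpha it read 68144.1, 66293.7 and 34680.9 in Rictor+/+ and 52506.9, 46271.1 and 7478.0 in Rictor-/- cells. The groups did not overlap after normalization in any of the 4 comparisons of treated with untreated or of line with line. Its mean log2 levels were 14.21 ± 0.18 and 15.77 ± 0.30 (SD, n = 3) in untreated and treated Rictor+/+ cells, and 12.13 ± 0.15 and 14.89 ± 0.64 in Rictor-/- cells. The average response was a log2 change of 2.17 ± 0.21, or 4.49-fold (limma adjusted p = 1.56e-05). The change was 1.57 ± 0.29 in Rictor+/+ and 2.77 ± 0.29 in Rictor-/- cells, and the untreated difference was -2.08 ± 0.29. The difference of responses was 1.20 ± 0.41, and it was 1.60 without array 12.

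The second Ifitm1 probe read 1124.8, 1096.6 and 671.2 in untreated and 1429.3, 988.2 and 561.9 in treated Rictor+/+ cells, so its treated and untreated arrays overlapped. The Rictor-/- arrays read 114.9 to 273.6 and none of these 6 was above background. Its average response was 0.00 ± 0.22 (limma adjusted p = 0.999, 95% interval -0.48 to 0.47). Among untreated cells the signal was at least 10.8-fold higher in the Rictor+/+ line, and at least 8.62-fold higher under IFN-alpha; such bounds set the brighter mean against the background limit. The third probe was above background only on arrays 9 and 10, both Rictor+/+, and was not tested. Both of the kept Ifitm1 probes were thus lower in untreated Rictor-/- cells, whereas an increase with IFN-alpha was seen only with the brightest. Probe sequences were not used here, so the part that transcripts of the closely related Ifitm genes play in a probe's signal was not tested.

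Ifitm2, whose protein also sits in endosomes, differed from its neighbours in the family. Its probe read 12505.1, 18340.0 and 14426.1 in untreated Rictor+/+ cells and 16971.3, 13889.5 and 13240.9 in untreated Rictor-/- cells. With IFN-alpha it read 26978.0, 29933.6 and 12802.6 in Rictor+/+ and 24022.4, 22068.3 and 4731.6 in Rictor-/- cells. The arrays of the groups overlapped in all 4 comparisons after normalization. The mean log2 levels, with SD and n = 3, were 13.75 ± 0.13 and 14.27 ± 0.42 in untreated and treated Rictor+/+ cells, and 13.85 ± 0.12 and 13.97 ± 0.39 in Rictor-/- cells. The average response was 0.32 ± 0.18 (limma adjusted p = 0.592, 95% interval -0.07 to 0.71). The difference of responses was -0.40 ± 0.36 (95% interval -1.18 to 0.37) and the untreated difference 0.10 ± 0.25. An increase of up to 0.71 was thus within the error of 3 arrays a group. Without arrays 10 and 12, the treated arrays of lowest total signal, the average response was 0.55 (limma adjusted p = 0.0869).

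Ifi27 was measured by a pair of probes that followed each other closely, with a Pearson r of 0.991 over the 12 arrays. The brighter probe read 4347.1, 3724.3 and 3773.2 in untreated and 4068.1, 4165.2 and 3160.9 in treated Rictor+/+ cells, and these groups overlapped. Rictor-/- cells gave 1114.9, 591.6 and 508.6 untreated and 5139.0, 3825.3 and 1389.5 with IFN-alpha. The untreated Rictor-/- group stood alone at the low end. Its mean log2 level was 9.18 ± 0.53 (SD, n = 3), against 11.70 ± 0.31 and 11.56 ± 0.14 in untreated and treated Rictor+/+ cells and 11.83 ± 0.01 in treated Rictor-/- cells. The average response was 1.25 ± 0.19, or 2.38-fold, and passed the test (limma adjusted p = 0.00129). The second probe gave 1.44 ± 0.20 (limma adjusted p = 0.000592). Both averages come from the Rictor-/- line, whose response was part of what chose Ifi27, and show no response common to the lines.

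By line, the log2 change of Ifi27 with IFN-alpha was -0.14 ± 0.26 in Rictor+/+ cells (95% interval -0.71 to 0.43) and 2.65 ± 0.26, or 6.26-fold, in Rictor-/- cells. The second probe gave 0.02 ± 0.28 and 2.85 ± 0.28. Ifi27 thus showed no detected increase in Rictor+/+ cells at 24 hours, at a signal 4.11 to 4.33 log2 units below the array's highest. The untreated difference between the lines was -2.52 ± 0.26, a 5.73-fold lower signal in Rictor-/- cells. Under IFN-alpha it was 0.27 ± 0.26 (95% interval -0.30 to 0.84), and its sign changed with the scaling: it was -0.13 with median scaling and -0.33 with no normalization between arrays.

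**Figure D2:**
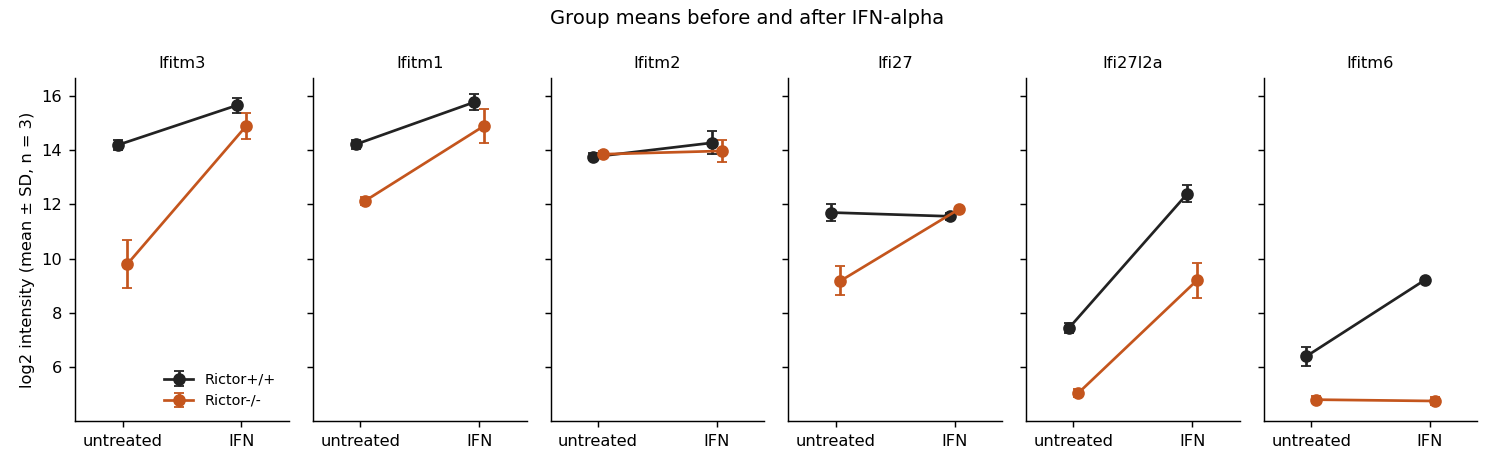
Mean normalized log2 intensity ± SD (n = 3 arrays) of each member's brightest probe and of Ifi27l2a and Ifitm6, untreated and with IFN-alpha, in both lines. The lines of Ifitm3, Ifitm1 and Ifi27 converge under IFN-alpha, those of Ifitm2 lie on each other, and those of Ifi27l2a and Ifitm6 do not converge. In Rictor-/- cells Ifitm6 was below background on all arrays and Ifi27l2a on all untreated arrays, so these points mark only the background level.

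Across the members, 3 of 4 genes, Ifitm1, Ifitm3 and Ifi27, rose in the average response, where 1.78% of all 18590 features tested were called as raised. These features were 8411 named genes and, taken singly, the probes without a single gene name. The shares of all features given here and below are over both kinds. In untreated cells all 3 Rictor-/- arrays lay below all 3 Rictor+/+ arrays for 3 of the 4 genes, against 14.7% of all features. In Rictor+/+ cells all treated arrays lay above all untreated arrays for Ifitm1 and Ifitm3, 2 of 4, against 6.9% of features. In Rictor-/- cells they did so for Ifitm1, Ifitm3 and Ifi27, 3 of 4, against 4.99% of features. The counts within and between lines rest on values that chose the members and are a description. The average response of Ifi27 comes from the Rictor-/- line, as does the larger part of that of Ifitm3. Ifitm3 and the bright Ifitm1 probe followed each other over the 12 arrays (Pearson r 0.967), as did Ifitm3 and Ifi27 (r 0.943), whereas Ifitm2 and Ifitm3 gave 0.419 and Ifitm2 and Ifi27 0.152. These arrays share lines, treatment and normalization, so the correlations describe the group pattern only.

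The room left above the signal differed greatly between members. The highest signal of any probe was 63648.7 to 72725.8 on the 12 arrays. In treated Rictor+/+ cells Ifitm3 read 88.9%, 89.3% and 52.0% of its array's highest signal, and the bright Ifitm1 probe 96.8%, 91.4% and 54.5%. Ifitm3 ranked 50 and 53 from the top of all probes on arrays 2 and 6. Already in untreated Rictor+/+ cells Ifitm3 lay 1.52 to 2.07 log2 units below the highest signal, and the bright Ifitm1 probe 1.51 to 2.10. A change of 5.08, the size seen for Ifitm3 in Rictor-/- cells, could not have been recorded from that level. In untreated Rictor-/- cells Ifitm3 lay 5.13 to 6.64 log2 units below the highest signal and the bright Ifitm1 probe 3.81 to 4.14. Ifitm2 lay 1.97 to 2.50 units below it in untreated Rictor+/+ and 2.08 to 2.33 in untreated Rictor-/- cells, so its room was alike in both lines. Ifi27 lay 4.02 to 4.27 units below it in untreated Rictor+/+ cells, farther than its change in Rictor-/- cells. How much compression near the highest signal adds to the difference of the Ifitm3 and Ifitm1 responses was not tested.

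Both sets of background level gave the same direction for Ifitm3, Ifitm1 and Ifi27 in the untreated difference and in the response of Rictor-/- cells, whereas the response of Ifi27 in Rictor+/+ cells was -0.23 and 0.04. The untreated difference of Ifitm3 was -3.23 among the high-background arrays and -5.14 among the low-background arrays, and its response in Rictor-/- cells was 4.28 and 5.51. That of Ifi27 was -1.93 and -2.78 untreated, with a response in Rictor-/- cells of 2.05 and 2.93. For the bright Ifitm1 probe the untreated difference was -1.88 and -2.31. Each set has only 2 residual degrees of freedom. In the high-background set each Rictor-/- group was a lone array (array 3 untreated, array 4 treated). In the low-background set each Rictor+/+ group was a lone array (array 9 untreated, array 10 treated). The spread of a lone array was not measured, so these values are effect sizes. The average response of Ifitm2 was 0.42 and 0.08.

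**Figure D3:**
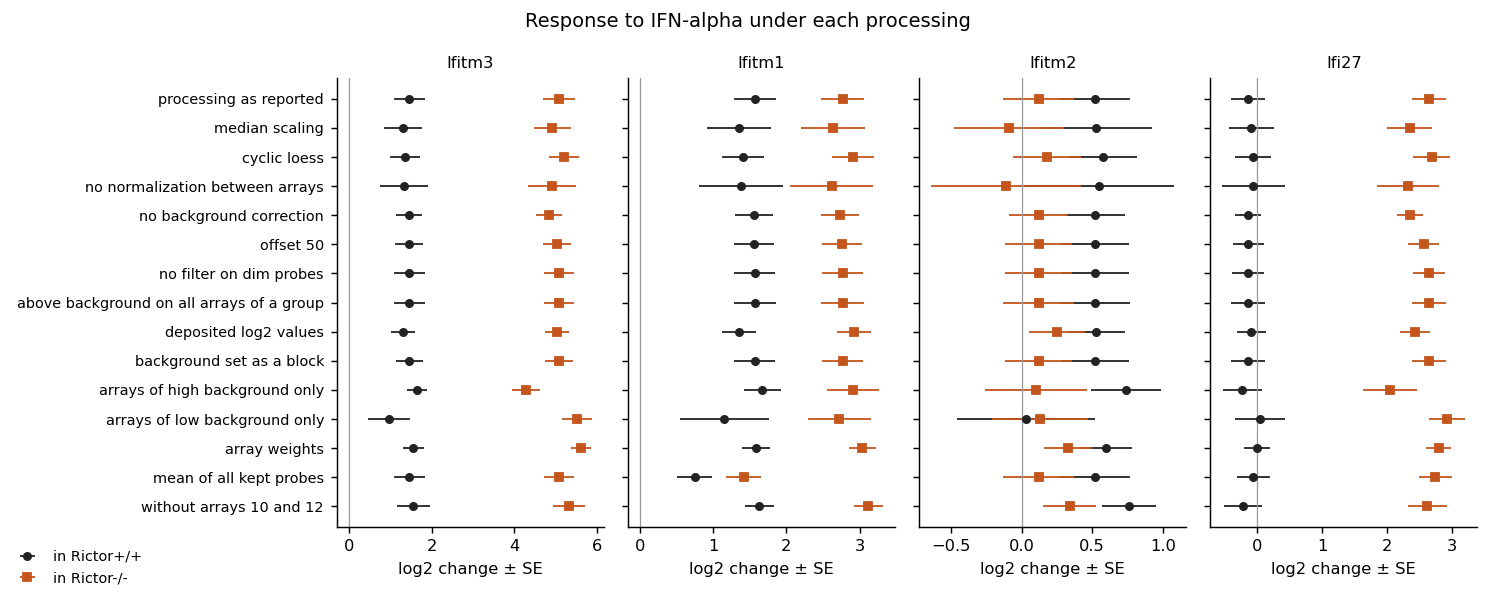
Log2 change with IFN-alpha ± SE of each member in Rictor+/+ (circles) and Rictor-/- cells (squares) under the processing as reported and 14 alternatives. For Ifitm3 and Ifi27 the Rictor-/- value lies to the right of the Rictor+/+ value in every row; all Ifitm2 values lie between -0.11 and 0.76; averaging the Ifitm1 probes lowers both of its values.

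Of 14 listed relatives of the members, 5 had a named probe and 2 of these, Ifitm6 and Ifi27l2a, passed the filter on dim probes. The listed name Ifi27l1 is a synonym of Ifi27 and was counted as not measured, and Ifi27 is also a synonym of Ifi27l2a. In untreated cells, Ifitm6 was at least 1.34-fold and Ifi27l2a at least 2.73-fold higher in Rictor+/+ cells. The fitted differences, which take values below background as measured, were -1.60 (limma adjusted p = 0.000184) and -2.39 (9.53e-05). A p-value beside a bound belongs to the fitted value and does not test the bound. The lower signal in untreated Rictor-/- cells was shared with Ifitm1, Ifitm3 and Ifi27, whereas under IFN-alpha the relatives differed from Ifitm3 and Ifi27. Ifitm6, which lies next to Ifitm3 on chromosome 7, read 1002.3, 1060.0 and 610.8 in treated Rictor+/+ cells and 255.6, 334.9 and 206.4 in untreated ones. It was not above background on any Rictor-/- array. It rose 7.05-fold in Rictor+/+ cells, a log2 change of 2.82 ± 0.21 (limma adjusted p = 1.55e-06). Untreated array 1, at 255.6, was not above background, so this fold depends on the background level. Under IFN-alpha Ifitm6 was at least 7.93-fold higher in Rictor+/+ than in Rictor-/- cells, with a fitted difference of -4.47 ± 0.21 (limma adjusted p = 1.93e-08). Ifi27l2a, a member of the Ifi27 family whose gene overlaps Ifi27 on chromosome 12, read 8761.8, 7682.1 and 4074.0 in treated and 343.4, 419.0 and 343.7 in untreated Rictor+/+ cells. In Rictor-/- cells it read 732.2, 1102.9 and 274.2 with IFN-alpha and was below background without it. It rose 31.4-fold in Rictor+/+ cells (4.97 ± 0.29, limma adjusted p = 1.96e-07). In Rictor-/- cells it rose at least 9.31-fold, with a fitted change of 4.16 ± 0.29 (limma adjusted p = 2.19e-06). Treated Rictor-/- cells stayed below treated Rictor+/+ cells by 9.18-fold (-3.20 ± 0.29, limma adjusted p = 5.28e-06). The difference of responses of Ifi27l2a was -0.81 ± 0.42 and did not pass the test (limma adjusted p = 0.972). The overlap of Ifi27l2a and Ifi27 was not resolved by these probes; their values nevertheless differed, since Ifi27 showed no detected change in Rictor+/+ cells. Ifitm5 and Ifitm10 were below background on all 12 arrays.

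Other antiviral effectors gave the setting for these values. Of 41 listed effectors 36 were measured, and 35 of them rose in the average response (1.78% of all features), with a median log2 change of 3.15 against -0.04 over all features. In Rictor+/+ cells 33 of 36 rose (1.94% of features) and in Rictor-/- cells 28 (0.742%), with medians of 4.01 and 3.04. With the genes that have a group below background at their bound, 7 and 12 genes, these medians were 3.83 and 3.04. The largest average responses were those of Usp18, which removes Isg15 from proteins (7.85 ± 0.25, limma adjusted p = 4.46e-10), Rsad2, the antiviral enzyme viperin (6.37 ± 0.18, 1.65e-10), and Trim30a (5.99 ± 0.27, 9.57e-09). The response differed between the lines for 10 of the 36. It was smaller in Rictor-/- cells for 9 (0.328% of features), among them Oas1a, Oas2 and Oas3, which make the activator of RNase L, and Mx1, a GTPase against influenza virus. It was larger for 1, Trim25 (0.0215% of features, 4 in all), a ubiquitin ligase of RNA sensing, which was not above background on any Rictor+/+ array. In untreated cells 10 of the 36 effectors were lower in Rictor-/- cells, against 6.24% of all features. Among the effectors 1, Oasl2, had a difference of responses in the direction of Ifi27, larger in Rictor-/- cells, and as large, at 3.05. It did not pass the test (limma adjusted p = 0.197). In the other direction several effectors had fitted differences of larger size than Ifi27, up to -5.26 for Sp100.

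**Figure D4:**
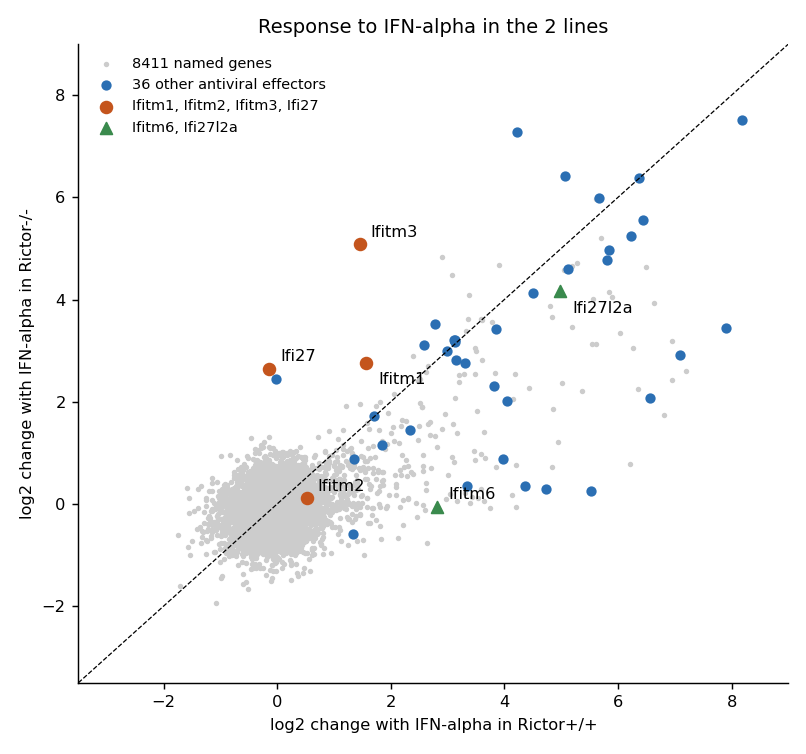
Log2 change with IFN-alpha in Rictor+/+ (x axis) and Rictor-/- cells (y axis) for 8411 named genes, with the 36 other effectors, the 4 members and 2 relatives marked; the dashed line marks equal change. Ifitm3, Ifi27 and Ifitm1 lie above the line, Ifitm2 near the origin, and Ifi27l2a and Ifitm6 below the line.

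Genes of interferon signalling were raised in part. Of 15 listed, 12 were measured, and 6 rose in the average response (1.78% of features). Their differences of responses lay between -1.93 and 1.46, with a limma adjusted p of 0.513 or more. Irf7, a factor that amplifies the interferon response, was below background on all untreated arrays and rose at least 38.3-fold in Rictor+/+ and at least 19.5-fold in Rictor-/- cells. Stat2 and Irf9, which take part in binding the response element, changed on average by 2.91 ± 0.23 (limma adjusted p = 2.03e-06) and 2.67 ± 0.23 (6.61e-06). In untreated cells 3 of the 12 were lower in Rictor-/- cells, against 6.24% of all features. These were the receptor subunit Ifnar2, by a log2 difference of -0.95 (limma adjusted p = 0.0301), the factor Irf1, by -1.35 (0.00218), and the phosphatase Ptpn6. Ptpn6 was below background in untreated Rictor-/- cells and at least 3.13-fold higher in Rictor+/+ cells. Its fitted difference was -2.1 (limma adjusted p = 0.00562). Stat2 differed between the untreated lines by 0.45 (limma adjusted p = 0.442) and Irf9 by -0.04 (0.965). Of 7 genes whose proteins act on or with Ifitm3, 1 was called in the average response, as lowered (0.35% of features): Nedd4, a ubiquitin ligase that marks IFITM3 for turnover in human cells, at -0.82 ± 0.15 (limma adjusted p = 0.00895). Zdhhc20, an enzyme that attaches palmitate to IFITM3, changed by -0.26 ± 0.32 (limma adjusted p = 0.841).

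With the members themselves left out, the named genes whose pattern was most like that of Ifitm3 over the 12 arrays were Oasl2 (Pearson r 0.94), Apol9b (0.923), Parp10 (0.923), Isg15 (0.92) and Apol9a (0.917). For Ifi27 they were Oasl2 (0.856), Shmt2 (0.843), Apol9a (0.814), Apol9b (0.799) and Isg15 (0.792). Oasl2, an oligoadenylate synthetase-like protein, averaged 10.74 and 14.95 in untreated and treated Rictor+/+ cells on the log2 scale, and 14.27 in treated Rictor-/- cells. Like Ifitm3 and Ifi27 it was lowest in untreated Rictor-/- cells, with an untreated difference of -3.74, but unlike Ifi27 it was also higher in treated than in untreated Rictor+/+ cells, by 4.22. Shmt2, a mitochondrial enzyme of serine metabolism, was likewise lowest in untreated Rictor-/- cells, at 10.77, and lay between 11.31 and 11.46 in the other groups. These correlations are descriptive, since the points share lines and treatment.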

How the data were processed

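Biotin-labelled total RNA was read on Illumina mouse BeadChips. The authors deposited an intensity for each of 45281 probes on 12 arrays, made with BeadStudio per the submitters' processing notes, with no background subtraction visible in the values and no detection p-value. They also deposited normalized log2 values of 17003 probes, whose normalization is not given in the sources used here; the medians per array were 8.72 to 8.97. These follow the intensities (Spearman 0.9978 to 0.9999 across probes) and served as an alternative. Gene names were at hand only for those probes, 14461 with 1 name, 5 with several and 2537 with none.

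With R 4.3.3 and limma 3.58.1, the most frequent signal of an array (the mode of its density) served as background, and the spread below it as the background SD. This stands in for detection p-values. Normexp correction (offset 16), quantile normalization and log2 followed. A probe was above background at an upper-tail p under 0.01, and 22257 probes above it on at least 3 arrays were kept. The brightest kept probe stood for a gene, which gave 18590 features, 8411 of them named. One mean per group was fitted with limma (8 residual and 4.9 prior degrees of freedom), and 6 contrasts were taken, two-sided, with Benjamini-Hochberg adjustment over all features and calls at 0.05. Precision is set by 3 arrays a group, with a median SE of 0.29 between 2 groups and of 0.41 where the responses of both lines are compared. The fit was tested on simulated data.

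The members and the gene lists were chosen with earlier results of these data known. Named beside the members were the 5 genes most like Ifitm3 and like Ifi27, the 3 genes of largest average response among those called in each list, and the genes called in the difference of responses; the others named (Irf1, Ifnar2, Ptpn6, Zdhhc20, Oasl2 as a list gene, Ifitm5 and Ifitm10) were added after their values were seen. Alternatives covered scaling, background, filter, deposited values, background set, array weights, choice of probe and each array left out.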

Additional observations from a re-analysis of the deposited data

Results flagged for a closer look

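The response to IFN-alpha differed between the lines for 11 genes of the lists beside the members, by the contrast of the responses itself (Rictor-/- minus Rictor+/+, log2 ± SE). Ifitm3 and Ifi27 were chosen on this contrast, so their values of 3.63 ± 0.53 and 2.79 ± 0.37 are a description and no result of a test. Ifitm6 differed by -2.87 ± 0.30 (limma adjusted p = 0.000399), with all Rictor-/- arrays below background. The smaller responses of Oas1a (-4.01), Oas1b (-2.04), Oas1g (-4.48), Oas2 (-4.19), Oas3 (-2.98) and Oasl1 (-4.44), of the oligoadenylate synthetase family, had limma adjusted p-values from 5.5e-05 to 0.0485. Mx1 differed by -4.48 (limma adjusted p = 0.00203), Ifit2, an RNA-binding effector, by -3.09 (0.00409), and Sp100, a nuclear body protein, by -5.26 (5.5e-05). Trim25 was the effector with a larger response in Rictor-/- cells, by 2.46 (limma adjusted p = 0.000706), from an untreated level at least 13.8-fold above that of Rictor+/+ cells. In Mx1, Oas1a, Oas1b, Oas2, Oas3, Oasl1, Sp100, Trim25 and Ifitm6 all 3 arrays of at least 1 group were below background, so the fitted difference depends on the background level.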

How the results depend on the processing

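The average response of Ifitm3 kept its direction and its call under all alternatives (2.96 to 3.59) and without each array in turn (3.11 to 3.51). That of Ifitm2 was not called under any (0.08 to 0.55). That of Ifi27 lost its call with no normalization between arrays (1.13) and among the high-background (0.91) or low-background arrays (1.49). That of Ifitm1 lost it among the low-background arrays (1.94) and with the second probe in place of the brightest (0.00, an alternative chosen after seeing the data), where the response in Rictor+/+ cells was -0.07 in place of 1.57. Within a set of arrays, lone arrays are assumed to vary like the other groups, and fewer samples enter. The difference of responses of Ifi27 was 2.44 with median scaling, 2.39 with no normalization and 2.28 among high-background arrays; that of Ifitm3 was 2.64 and 4.52 among high-background and low-background arrays. That of Ifitm1 was 1.58 among low-background arrays, 0.67 with the mean of its probes, 0.14 with the second probe, and 0.99 to 1.60 when leaving out 1 array; that of Ifitm2 was 0.11 among low-background arrays. Median scaling and no normalization move the median of all features in this contrast by -0.24 and -0.29. Effectors with a larger response in Rictor-/- cells numbered 0 with no normalization and within either set of arrays, 2 with the deposited values, 3 with array weights, and 1 to 2 when leaving out 1 array (2 without array 3). Effectors with a smaller response numbered 0 within either set and 6 to 9 when leaving out 1 array. Effectors raised on average numbered 23 among low-background arrays. Features raised on average numbered 190 with no normalization, 164 and 122 among high-background and low-background arrays, and 508 with array weights. Without arrays 10 and 12 all member calls held. With the background set as a block all member calls held. The groups share no replicate numbers and the labels name no batch, so no replicate block was fitted. Array numbers run through the groups in the same order, as 1 to 4, 5 to 8 and 9 to 12. No label calls these runs sets, and a pairing within them was not tested. How far signal near the array's highest limits the response of Ifitm3 and Ifitm1 in Rictor+/+ cells was not tested. The cause of the shifts between these alternatives was not tested either.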

Other observations

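Among 8411 named genes, 882 had a signal at least 1 log2 unit lower in the Rictor-/- line before treatment. Of these, 43 were also at least 1 unit higher in Rictor-/- cells after IFN-alpha, and 17, or 1.93% of the 882, then lay within 1 unit of treated Rictor+/+ cells. Ifitm3, Ifi27 and Ifitm1, the last by its brightest probe, were 3 of the 17. The second Ifitm1 probe did not show this pattern, being below background on all Rictor-/- arrays, treated or not. This grouping was chosen after the values were seen and has no test, and its first criteria share the untreated Rictor-/- arrays. The other 14 included effectors of the interferon response, namely Oasl2, Eif2ak2, the kinase that halts translation on viral RNA, and Ifit3, as well as Uba7, the activating enzyme for Isg15, and the guanylate-binding protein Gbp3. They also included 4 histone H2A genes, H2ac11, H2ac15, H2ac22 and H2ac24, with untreated differences of -1.27 to -1.42 and changes of 1 to 1.30 in Rictor-/- cells. The same histone genes changed by -0.36 to -0.45 in Rictor+/+ cells.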
